A study of Mus musculus with 8 samples.

Results

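Peritoneal macrophages that lack the Fc receptor γ chain were compared with wild-type macrophages after both had been treated with IFNγ. The comparison set the 2 arrays labelled FcgKO IFNg stim against the 2 labelled WT IFNg stim, out of 8 arrays in the series, and covered all 23978 of 25697 probes that carry a gene symbol, or 16593 genes when each gene was represented by its brightest probe. The cells came from naive mice labelled C57BL/6, were left to adhere overnight in RPMI with 10% serum and 15% supernatant of L929 cells as a source of M-CSF, and were washed free of floating cells. IFNγ was then given at 10 ng/ml for 6 h. The other 4 arrays, 2 FcgKO and 2 WT, held cells of the same 2 genotypes without IFNγ, and they entered the fit so that all 4 groups shared an estimate of the spread. The labels name the genotypes as WT and FcgKO, without the allele, the cells in which it was made or whether animals were pooled. Separate animals or wells are not named for the 2 samples of a group. The p-values thus reflect sample-to-sample spread alone, part or all of which may be technical.

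The γ chain, encoded by Fcer1g, is a small transmembrane adaptor. It carries an immunoreceptor tyrosine-based activation motif (ITAM), and activating Fc receptors for IgG and IgE, as well as several C-type lectin and immunoglobulin-like receptors, depend on it for signalling and in part for surface display. Phosphorylation of the motif recruits the kinase Syk, which leads through CARD9, BCL10 and MALT1 to NF-κB. IFNγ acts on macrophages through JAK kinases and through gamma-activated sites (GAS elements) in promoters, and it induces antigen presentation, the GTPases that attack intracellular pathogens, chemokines for T cells and the high-affinity IgG receptor FcγRI.

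Fcer1g itself was examined before any other gene, since its level checks the labels. Its intensity was 16987 and 18350.0 on the WT arrays with IFNγ and 107 and 98.5 on the FcgKO arrays with IFNγ, where the array median was about 103. The unstimulated arrays gave 17567 and 18350.0 in WT and 95.7 and 95.6 in FcgKO, so the labels of all 8 arrays matched these levels. With IFNγ the log2 difference was -7.43 (SE 0.06, limma adjusted p = 5.67e-10). Since the FcgKO level was about that of the array median, this value may understate the fall. Intensities are those deposited by the authors, which include the background and had already been normalised between arrays. Log2 differences therefore understate the change of dim genes. Over all probes, the log2 values of the 2 replicates of a group correlated at 0.9959 to 0.9972 (Pearson, across probes, which are not independent).

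The cells were checked against marker lists before the comparison. Of 15 macrophage markers 11 were measured, and their summed intensity above the array median was 50580 and 53750 on the WT arrays and 49550 and 50890 on the FcgKO arrays with IFNγ. The lysozyme gene Lyz2 made up a large part of that sum and was at or near the highest value on the scale on all 4 arrays, so a steady sum says little. Of the 11 markers 3 were called between the genotypes, that is, had an adjusted p below 0.05 (27.3%, against 2.44% of all genes tested). Fcgr1 was higher in FcgKO and Mertk and Cebpb were lower, and their values are given further on. The macrophage gene Adgre1, which encodes F4/80, was bright on all arrays, at 3395 and 3342 in WT and 3794 and 4611 in FcgKO (log2 difference 0.31, adjusted p = 0.132). Genes of mast cells, which live beside macrophages in the peritoneal cavity, moved with the genotype. The sum over the 13 measured mast cell and basophil markers was 2658 and 2375 in WT and 977.3 and 1412 in FcgKO with IFNγ, against 1849 and 2108 in WT and 828.8 and 1030 in FcgKO at rest. Of these markers 7 were lower in FcgKO and none higher (53.8% called, against 2.44% of all genes). The chymase gene Cma1 read 582 and 611 in WT and 252 and 302 in FcgKO, the tryptase gene Tpsb2 491 and 504 in WT against 192 and 282 in FcgKO, and the mast cell carboxypeptidase gene Cpa3 564 and 517 in WT against 244 and 308 in FcgKO. Another probe of Cma1 gave -0.98 and was called, while other probes of Cpa3 gave -0.86 and -0.34 and were not. Mcpt8, a basophil protease gene, and Ms4a2, the β chain gene of the IgE receptor, were under the array median on all 8 arrays. Hdc, which is also in the sum, was higher with IFNγ than at rest in both genotypes. It read 603 and 453 in WT and 436 and 601 in FcgKO with IFNγ (log2 difference -0.03, limma adjusted p = 0.982). At rest it read 233 and 237 in WT and 207 and 258 in FcgKO. The count of lower mast cell markers was 2 without WT replicate 1 and 4 without WT replicate 2 of the IFNγ arrays.

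B cell and granulocyte genes are given with the same values. The sum over 11 B cell markers was 3203 and 1924 in WT and 1742 and 1268 in FcgKO with IFNγ, against 3789 and 2148 in WT and 2255 and 1468 in FcgKO at rest. Replicate 1 was above replicate 2 in all 4 groups, and FcgKO was below WT of the same replicate number in both conditions. None of the 11 was called, although all 11 had a negative log2 difference, and 4 were called with the replicate number as a block. The largest difference among them was that of Fcrla (-0.95, adjusted p = 0.193), at 1120 and 746 in WT and 506 and 442 in FcgKO. Fcrla lies 44 genes from Fcer1g on chromosome 1, among the neighbours kept apart further on, and it is part of the B cell sums. Pax5 and Cr2 were under the median on all 4 arrays with IFNγ. The 16 markers of neutrophils and eosinophils summed to 3697 and 3983 in WT and 2968 and 2544 in FcgKO. Most of that sum was S100a8, at 3638 and 3939 in WT against 2889.9 and 2469.9 in FcgKO (log2 difference -0.50, adjusted p = 0.137), while Ngp, Cxcr2, Prg2, Epx and Siglecf were under the median on all 4 arrays. In such bulk samples fewer cells of a type and less RNA per cell cannot be told apart. What part these marker differences have in the lower expression of other genes described here was not tested.

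Limma called 405 of 16593 genes between the genotypes with IFNγ at an adjusted p below 0.05, which is 2.44% of the genes tested. In FcgKO 167 genes (1.01%) were higher and 238 (1.43%), Fcer1g among them, were lower. At least 1.5-fold changes numbered 55 higher and 100 lower, and at least 2-fold changes 14 higher and 31 lower. The call count rests on single arrays. It was 131 without WT replicate 1, 117 without WT replicate 2 and 176 without FcgKO replicate 2 of the IFNγ groups, and the split was 44 and 87, 47 and 70, and 64 and 112 higher and lower. An exact permutation test of 2 arrays against 2 cannot give a two-sided p below 0.333 for a single gene, so calls come from the fit across all probes.

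**Figure D1:**
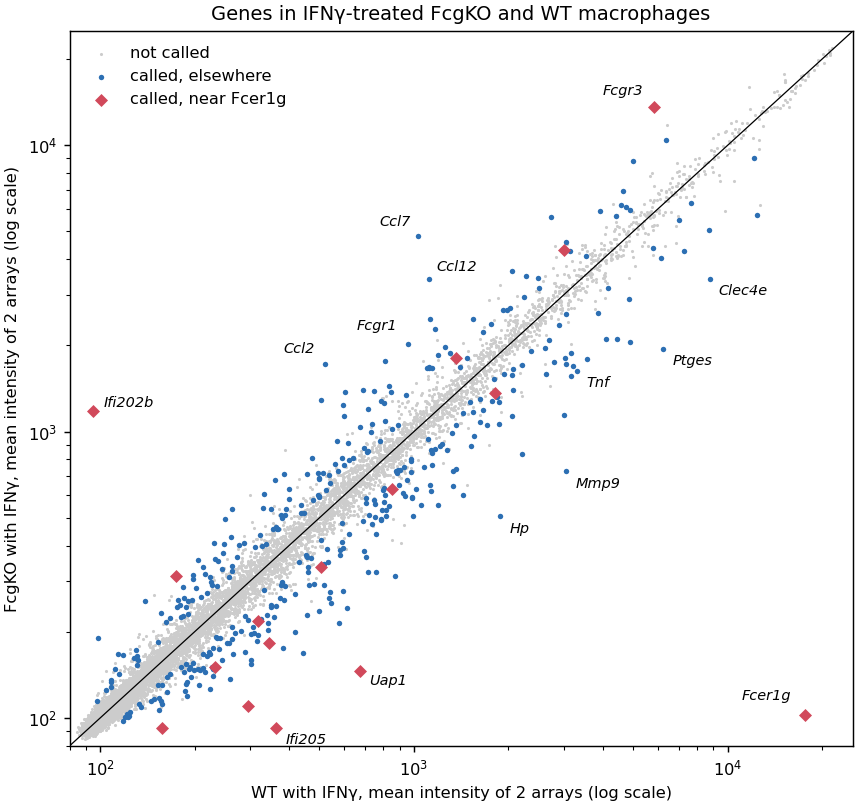
Mean deposited intensity of each of 16593 genes in the 2 FcgKO arrays with IFNγ (vertical, log scale) against the 2 WT arrays with IFNγ (horizontal, log scale); blue points are called genes away from Fcer1g, red diamonds called genes within 150 genes of it, grey points genes not called, and the line marks equal intensity. Fcer1g lies far below the line at 17669 in WT and 102.6 in FcgKO, and Ifi202b far above it.

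The Fc receptors, which bind the constant part of antibodies, were taken first because they pair with the missing chain. Transcripts of 3 of the 13 measured members were higher in FcgKO and 2 lower, Fcer1g included (38.5% called, against 2.44% of all genes). That share counts the missing gene itself. Of the 13 members 6 lie near Fcer1g, itself included, where 13.3% of the other genes were called. Fcgr1 was the only called member that lies elsewhere. Fcgr1, on chromosome 3, encodes FcγRI, the high-affinity IgG receptor and a known target of IFNγ. It read 986 and 932 in WT and 1967 and 2066 in FcgKO (log2 difference 1.07, SE 0.05, adjusted p = 0.000116). Both FcgKO arrays were thus far above both WT arrays, and the replicates of each genotype lay close together. Without IFNγ the difference was smaller, 0.34 (adjusted p = 0.0456), with 648 and 646 in WT and 792 and 847 in FcgKO, and the test of the difference between the conditions gave an adjusted p = 0.0517. The low-affinity activating receptor gene Fcgr3 read 5789 and 5886 in WT against 12921 and 14191 in FcgKO (1.21, adjusted p = 6.85e-05), and Fcgr2b, whose product is the inhibitory IgG receptor and needs no γ chain, 2941 and 3079 in WT against 4011 and 4580.0 in FcgKO (0.51, adjusted p = 0.0126). Another 2 probes of Fcgr2b gave -0.05 and 0.03 and were not called. Fcgr4, a γ chain partner that was bright in all IFNγ samples, read 11676 and 11841 in WT against 11903 and 14885 in FcgKO, and was not called (log2 difference 0.18, adjusted p = 0.922). Fcgr2b, Fcgr3, Fcgr4 and Fcer1a lie near Fcer1g on chromosome 1 and are taken up again with its neighbours. Without WT replicate 1 of the IFNγ arrays 3 members of the list were called.

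The promoter of Fcgr1 is shown because this gene was the highest of the Fc receptors away from Fcer1g and its induction by IFNγ through a GAS element is well known. It was selected with the values in view. The sequence is the 250 bases before the transcription start in RefSeq (GRCm38.p6, chr3:96293970-96294219, minus strand), with a match to the GAS letters TTCNNNGAA in capitals, 109 bases before the start.
Fcgr1: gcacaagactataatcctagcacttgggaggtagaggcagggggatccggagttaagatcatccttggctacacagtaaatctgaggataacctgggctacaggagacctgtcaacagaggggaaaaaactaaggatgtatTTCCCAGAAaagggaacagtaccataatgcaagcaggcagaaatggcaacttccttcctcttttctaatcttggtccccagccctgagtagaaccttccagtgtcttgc
Such a match was present in 7.02% of the 32851 promoters in the table, read on both strands over the same length.

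Other receptors that signal through the γ chain were lower where they changed. Of 17 measured genes listed as partners that are not Fc receptors, 3 were lower in FcgKO and none higher (17.6% called, against 2.44% of all genes). Clec4e encodes Mincle, which recognises mycobacterial glycolipids, and it read 8678 and 8844 in WT and 3564 and 3256 in FcgKO with IFNγ (log2 difference -1.36, SE 0.08, adjusted p = 0.00029). A second probe of the gene gave -1.58 and was also called. Tarm1, an activating receptor of myeloid cells, read 467 and 447 in WT against 239 and 220.4 in FcgKO (adjusted p = 0.000215). The third was Pilrb1 (-0.43, adjusted p = 0.00944), whose product is known to pair with the adaptor DAP12 and which the list should not have held, nor the inhibitory receptor gene Clec4a2, which was not called. The Dectin-2 gene Clec4n read 12009 and 8947 in WT against 7186 and 7761 in FcgKO and was not called (adjusted p = 0.34).

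Among receptors that use another adaptor, calls went both ways. Of 18 genes of other ITAM or hemITAM receptors and adaptors, 1 was higher and 1 lower (11.1% called, against 2.44% of all genes). Tyrobp, which encodes the sister adaptor DAP12, read 5543 and 5088 in WT and 5704 and 4899 in FcgKO (log2 difference -0.01, adjusted p = 0.996), and the β-glucan receptor gene Clec7a 4739 and 4938 in WT against 4938 and 5512 in FcgKO (0.11, adjusted p = 0.841). The groups overlapped for both genes. The called members were Sirpb1a, at 0.65, and Treml4, which was at least 1.16-fold lower. A second probe gave 0.04 for Sirpb1a and -0.15 for Treml4, and neither was called. Both genes lost their calls when only the arrays with IFNγ were fitted. Among 13 inhibitory receptors, Cd300lf was the member called (7.69%, against 2.44% of all genes). It read 186 and 209 in WT and 308 and 326 in FcgKO (log2 difference 0.68, adjusted p = 0.00207).

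Downstream of these receptors, 3 of 28 ITAM signalling genes were higher in FcgKO and 4 lower (25% called, against 2.44% of all genes). The paracaspase gene Malt1 read 299 and 307 in WT and 154 and 155 in FcgKO (log2 difference -0.97, adjusted p = 0.000262). Its partner Bcl10 was lower by less (-0.40, adjusted p = 0.0163), as was the kinase gene Prkcd (-0.37). The kinase gene Src read 189.9 and 189.6 in WT against 130.2 and 109 in FcgKO (-0.67, adjusted p = 0.00514), while its second probe, which is dim, gave -0.02. Higher were Inpp5d, the gene of the lipid phosphatase SHIP1 (542 and 529 in WT against 715 and 697 in FcgKO, log2 difference 0.40), the phosphatidylinositol 3-kinase subunit gene Pik3r1 (0.47) and the adaptor gene Lat2 (0.36). The Syk probe was close to the array median on all arrays, at 106 and 108 in WT against 102 and 106 in FcgKO, and gives no measure of that kinase. The count of called members was 4 without WT replicate 1, 3 without WT replicate 2 and 4 without FcgKO replicate 2 of the IFNγ arrays, and 2 with normexp background correction at an offset of 16.

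The monocyte chemoattractants held the highest genes away from Fcer1g. All 4 members of this group, which share a cluster on chromosome 11 and draw monocytes out of the blood, were higher in FcgKO, with a median log2 difference of 1.67 against 0.0012 over all genes. Ccl7 read 1143 and 914 on the WT arrays and 4169 and 5443 on the FcgKO arrays with IFNγ (log2 difference 2.22, SE 0.14, adjusted p = 0.000299). Ccl2, the main ligand of the receptor CCR2, read 513 and 531 in WT against 1674 and 1780.0 in FcgKO (1.73, adjusted p = 0.00169). Ccl12, a rodent CCR2 ligand, read 1026 and 1212 in WT against 3016 and 3834 in FcgKO (1.61, adjusted p = 0.00292). Ccl8, which in mice acts through CCR8, was dimmer, at 131 and 147 in WT against 232 and 281 in FcgKO (0.88, adjusted p = 0.00568). For each of the 4 genes the lower FcgKO array was above the higher WT array, as was the case for 21.5% of all genes. The list was assembled with earlier results of these data known, so its count is a description. Ccl8 was not called without WT replicate 1 of the IFNγ arrays (adjusted p = 0.057), which left 3 members.

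At rest the same 4 genes read lower in both genotypes and differed by less. Ccl7 read 854 and 861 in WT and 2149 and 1925 in FcgKO without IFNγ (log2 difference 1.25, adjusted p = 0.012), and Ccl12 275 and 378 in WT against 712 and 709 in FcgKO (1.14, adjusted p = 0.0348). Ccl2 was not called at rest (0.83, adjusted p = 0.0867). Ccl8 was near the array median there, at 97.9 and 96.7 in WT against 96 and 109.8 in FcgKO. The difference between the conditions was not called for any of them (adjusted p = 0.287 for Ccl7, 0.389 for Ccl2, 0.772 for Ccl12 and 0.246 for Ccl8).

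**Figure D2:**
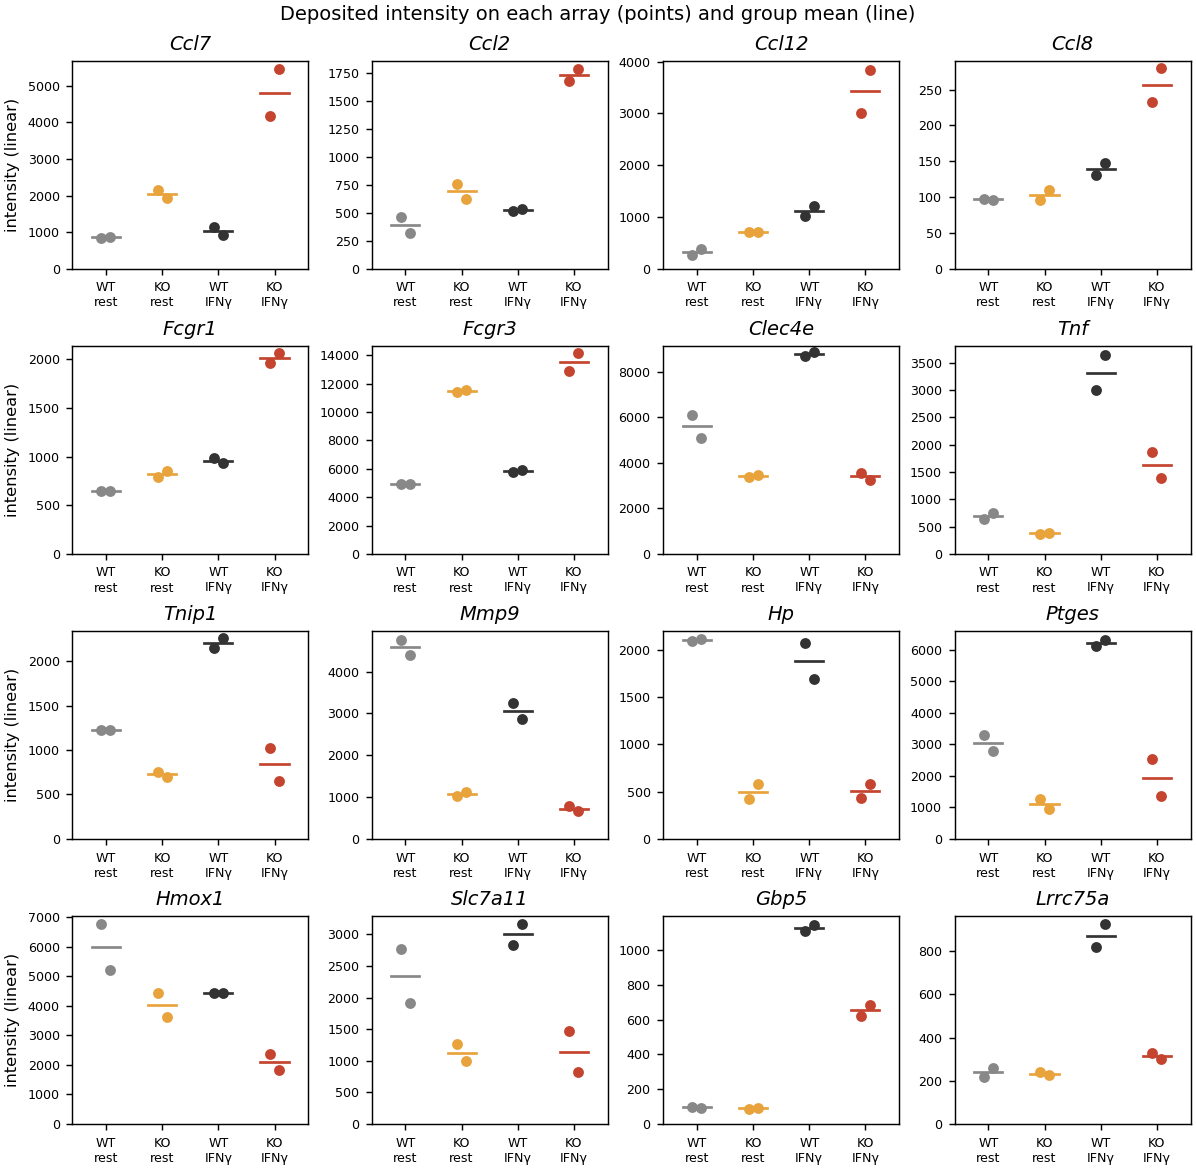
Deposited intensity on each of the 8 arrays (points, linear axis from 0) with the mean of each group of 2 (line) for 16 genes, in unstimulated and IFNγ-treated WT and FcgKO (KO) macrophages. Ccl7, Ccl2, Ccl12 and Ccl8 are highest in FcgKO with IFNγ, whereas Mmp9 and Hp are low in FcgKO in both conditions and Lrrc75a reads highest in WT with IFNγ.

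Ccl12 had the highest log2 difference among genes away from Fcer1g for which a promoter sequence was at hand, and its 250 bases before the start are printed from RefSeq (GRCm38.p6, chr11:82101595-82101844, plus strand).
Ccl12: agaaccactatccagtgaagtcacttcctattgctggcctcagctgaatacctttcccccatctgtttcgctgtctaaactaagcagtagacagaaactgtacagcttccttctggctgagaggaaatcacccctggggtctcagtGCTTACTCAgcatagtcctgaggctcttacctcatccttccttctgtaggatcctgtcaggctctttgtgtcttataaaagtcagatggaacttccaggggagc
The capitals mark a match to a loose spelling of the core of the antioxidant response element (TGANNNNGC, found in 35.2% of all 32851 promoters on either strand). Core matches named further on use the same loose spelling. The window held no match to the GAS letters, to the ISRE core (2.98% of promoters) or to the AP-1 letters TGANTCA (6.75%). The same was true of Ccl6 and Rin2 for these 3 motifs. Emp1, also among the highest genes with an entry, held matches to the GAS letters 120 and 22 bases before the start. Its window also held the AP-1 letters at 145 and 25 bases, and no ISRE core match. A narrow spelling of the NF-κB site was searched as well and is not reported, since it misses common forms of that site.

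Other chemokines went both ways where they changed. Of 14 further CC chemokines Ccl6 was the member called (7.14%, against 2.44% of all genes). Ccl6 read 618 and 589 in WT and 1340.2 and 1406 in FcgKO (log2 difference 1.19, adjusted p = 0.00514). Ccl4, which attracts T cells and natural killer cells, read 2751 and 2673 in WT against 1912 and 968 in FcgKO and was not called (adjusted p = 0.13). Of 16 CXC and other chemokines, 1 was lower (6.25% called), the neutrophil chemokine gene Cxcl2. It read 356 and 407 in WT against 219.9 and 133 in FcgKO (-1.16, adjusted p = 0.0392). Cxcl10, a T cell chemokine gene strongly induced by IFNγ, read 11841 and 13589 in WT and 7668 and 4657 in FcgKO (log2 difference -1.09, adjusted p = 0.13). Cxcl10 was not called. Cxcl9, which binds the same receptor, read 16195 and 16471 in WT against 14586 and 15936 in FcgKO (-0.10, adjusted p = 0.678).

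Genes of the NF-κB response were lower in FcgKO where they changed. Of the 37 measured genes in this list of inflammatory cytokines and targets, 15 fell and none rose (40.5% called, against 2.44% of all genes). A negative log2 difference was found for 32, with a median of -0.34 against 0.0012 over all genes. The called members include genes of the feedback that restrains NF-κB. Tnip1, whose product binds the ubiquitin-editing enzyme A20, read 2151 and 2256 in WT and 1020.0 and 654 in FcgKO (log2 difference -1.43, SE 0.17, adjusted p = 0.00617), and its other 3 probes were called in the same direction. Nfkbie, which encodes the inhibitor IκBε, read 757 and 763 in WT against 379 and 269.6 in FcgKO (-1.25, adjusted p = 0.00633). Tnfaip3, the gene of A20 itself, read 775 and 742 in WT against 438 and 440.4 in FcgKO (-0.79, adjusted p = 0.0104). The subunit genes Relb (-0.68) and Nfkb2 (-0.67) were lower as well.

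Among the cytokines and effectors of that list, Tnf, the gene of tumour necrosis factor, read 2992 and 3638 in WT and 1869 and 1381 in FcgKO (log2 difference -1.04, adjusted p = 0.014). The adhesion molecule gene Icam1 read 5737 and 6523 in WT against 4337 and 3756 in FcgKO (-0.60, adjusted p = 0.0124), and the stress response gene Ier3 4990.3 and 4739 in WT against 3208 and 2611 in FcgKO (-0.75, adjusted p = 0.00824). Tnfaip2 (-0.76), Traf1 (-0.63), Nfkbiz (-0.60), Gadd45b (-0.58), Il27 (-0.43), Tnfsf9 (-0.34) and Nfkbib (-0.26) made up the rest of the 15. The interleukin-1 genes Il1b and Il1a were not called. Il1b read 879.5 and 818 in WT and 633 and 207 in FcgKO (adjusted p = 0.266), and Il1a 805 and 1021 in WT against 553 and 262 in FcgKO (adjusted p = 0.0977). Il6 and Ptgs2 were near or under the array median on the 4 arrays, at 96 and 96.6 in WT against 99.8 and 100.3 in FcgKO for Il6. The number of members called was 3 without WT replicate 1 and 2 without WT replicate 2 of the IFNγ arrays. The mast cell marker sums moved in the same direction, and their part in this group was not tested.

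The 2 FcgKO arrays with IFNγ were not alike for these genes. Replicate 2 read lower than replicate 1 for Tnip1, Nfkbie, Tnf, Il1a, Il1b, Cxcl1, Cxcl2 and Cxcl10, and over all 237 genes called lower besides Fcer1g it did so for 156. Over the called genes the median absolute log2 difference between replicates was 0.0976 in FcgKO with IFNγ and between 0.0665 and 0.0759 in the other groups.

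Extracellular proteases and acute-phase proteins held the lowest genes away from Fcer1g. Mmp9, which encodes the secreted gelatinase B, read 3244 and 2868 in WT and 793 and 659.9 in FcgKO (log2 difference -2.08, SE 0.10, adjusted p = 0.000113). Mmp14, the gene of a membrane-bound matrix metalloproteinase, read 4919 and 4841 in WT against 1927 and 2184 in FcgKO (-1.25, adjusted p = 0.000128). The other 22 of 24 measured proteases, inhibitors and matrix genes were not called, so 8.33% of the list was called, against 2.44% of all genes. Hp encodes haptoglobin, the plasma protein that captures free haemoglobin. It read 2077 and 1695 in WT and 431 and 582 in FcgKO (-1.91, adjusted p = 0.00238), and its other 2 probes gave -1.70 and -1.84. Fpr2, a formyl peptide receptor gene, read 12366 and 12467 in WT against 6349.5 and 5044 in FcgKO (-1.13, adjusted p = 0.00153). Hp and Fpr2 were the called members among 19 acute-phase and inflammatory proteins (10.5%). At rest the log2 differences were -2.10 for Mmp9, -1.08 for Mmp14, -2.09 for Hp and -1.18 for Fpr2, and each of the 4 was called there too.

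In lipid mediator synthesis, Ptges, the inducible prostaglandin E synthase gene, read 6138 and 6325 in WT and 2526 and 1357 in FcgKO with IFNγ (log2 difference -1.75, SE 0.26, adjusted p = 0.0155). A second probe gave -1.65 and was called. Both FcgKO arrays were below both WT arrays, and the FcgKO replicates lay further apart than the WT replicates. Pla2g7, which degrades platelet-activating factor, was lower (-0.69, adjusted p = 0.00298) and Ptgis, the prostacyclin synthase gene, was higher (0.41, adjusted p = 0.0343). The other 15 of 18 eicosanoid enzymes were not called, so 16.7% of the list was called, against 2.44% of all genes. Ptges lost its call without WT replicate 2 of the IFNγ arrays (adjusted p = 0.12).

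Genes of glutathione and redox defence were lower where they changed. Of 26 measured members 7 were lower and none higher (26.9% called, against 2.44% of all genes). The median log2 difference was -0.20, against 0.0012 over all genes. Slc7a11, the cystine transporter that feeds glutathione synthesis, read 2830.1 and 3172 in WT and 1472 and 817 in FcgKO (log2 difference -1.45, SE 0.27, adjusted p = 0.0409). Gclm, the modifier subunit of the enzyme that makes the first bond of glutathione, read 3263 and 3167 in WT against 1909 and 1494 in FcgKO (-0.93, adjusted p = 0.00526). Hmox1, the haem oxygenase gene, read 4424 and 4441 in WT against 2377 and 1844 in FcgKO (-1.08, adjusted p = 0.0146), and the sulfiredoxin gene Srxn1 3765 and 3383 in WT against 2136 and 1459.5 in FcgKO (-1.02, adjusted p = 0.0217). Srxn1 had 2 further probes, both called, at -1.04 and -1.06. The glutathione transferase gene Gsta3 read 449 and 435 in WT against 157 and 179 in FcgKO (-1.40, adjusted p = 8.5e-05). Another probe of Gsta3, which is dim, gave -0.08 and was not called. Gss (-0.46) and Gstm1 (-0.34) completed the 7.

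Other members of the redox list were not called. Nfe2l2, which encodes the transcription factor NRF2 that drives many of these genes, read 316 and 344 in WT and 257 and 240.3 in FcgKO (adjusted p = 0.0651), Txnrd1 195 and 241 in WT against 140.3 and 167 in FcgKO (adjusted p = 0.0664), and Nqo1 183 and 186 in WT against 139 and 173 in FcgKO (adjusted p = 0.449). The number called was 1 without either WT replicate and 3 without FcgKO replicate 2 of the IFNγ arrays. Slc7a11 and Srxn1 also lost their calls when the 4 arrays with IFNγ were fitted alone (adjusted p = 0.0696 and 0.0621).

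The promoters of Slc7a11 and Srxn1 are printed because both genes are known targets of NRF2, whose binding site shares its first letters with the AP-1 site. Slc7a11 was among the 4 lowest genes with an entry, and Srxn1 was picked with its values in view. Both sequences are the 250 bases before the start in RefSeq (GRCm38.p6; Slc7a11 at chr3:50443614-50443863, minus strand; Srxn1 at chr2:152105274-152105523, plus strand). Capitals mark matches to the GAS, AP-1 or antioxidant response letters.
Slc7a11: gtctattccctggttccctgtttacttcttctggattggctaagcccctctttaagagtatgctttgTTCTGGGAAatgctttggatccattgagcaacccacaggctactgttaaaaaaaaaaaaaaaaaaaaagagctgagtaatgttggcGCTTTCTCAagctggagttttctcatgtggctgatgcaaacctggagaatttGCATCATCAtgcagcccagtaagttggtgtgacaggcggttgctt
Srxn1: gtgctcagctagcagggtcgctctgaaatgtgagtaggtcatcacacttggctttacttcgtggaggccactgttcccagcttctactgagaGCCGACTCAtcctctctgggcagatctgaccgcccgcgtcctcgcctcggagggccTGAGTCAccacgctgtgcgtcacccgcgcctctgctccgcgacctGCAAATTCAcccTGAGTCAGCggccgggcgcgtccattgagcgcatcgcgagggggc
Slc7a11 held TTCTGGGAA, a match to the GAS letters, 183 bases before the start, and antioxidant response core matches at 97 and 45 bases. Srxn1 held the AP-1 letters TGAGTCA at 102 and 45 bases before the start. The match at 45 bases overlaps an antioxidant response core match, TGAGTCAGC, and other core matches lie at 158 and 57 bases. Of the other lowest genes with an entry, Tnip1 held a GAS match, Ptges and H2-M2 an antioxidant response core match, and none of the 3 held an AP-1 match. These matches describe letters in the window and were not tested as binding sites.

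Among the genes that IFNγ is best known for inducing, most were not called between the genotypes, as was true of all genes. Of 17 measured interferon-inducible GTPases 1 was lower and 1 higher in FcgKO (11.8% called, against 2.44% of all genes). Gbp5, a guanylate-binding protein gene linked to inflammasome activation, read 1112 and 1142 in WT and 619.8 and 686 in FcgKO with IFNγ (log2 difference -0.79, SE 0.06, adjusted p = 0.000539) and was under the array median at rest. Tgtp1 was higher by 0.24 (adjusted p = 0.0397), a call lost with normexp background correction. Gbp2 read 21486 and 19689 in WT against 20466 and 20466 in FcgKO (-0.01, adjusted p = 0.996), near the top of the scale, where a difference may be compressed, and its 2 dimmer probes gave 0.29 and 0.16 and were not called. Irgm1 read 10802 and 10092 in WT against 10709 and 10802 in FcgKO (0.04, adjusted p = 0.899) and Igtp 5900.5 and 5523 in WT against 6223 and 5595 in FcgKO (0.05, adjusted p = 0.888). The groups overlapped for these 3 genes. Over the whole list the log2 differences ran from -0.79 to 1.04, and the highest was not called. Of the 17 members 14 had a positive difference, with a median of 0.07 against 0.0012 over all genes.

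No called gene was found among 20 genes of MHC class I presentation or among 17 of MHC class II presentation and co-stimulation. Since 2.44% of all genes were called, lists of this size would often hold none. Log2 differences ran from -0.20 to 0.28 among the class I genes and from -0.50 to 0.48 among the class II and co-stimulation genes. The peptide transporter gene Tap1 read 684 and 742 in WT and 684 and 624 in FcgKO, the immunoproteasome gene Psmb8 1402 and 1205 in WT against 1299 and 1271 in FcgKO, and B2m, the light chain gene of class I, 18846 and 18846 in WT against 18350.0 and 18244 in FcgKO. The class II genes H2-Ab1 and Cd74 read 3955 and 4492 in WT against 4884 and 4271 in FcgKO, and 5291 and 5443 in WT against 5606 and 4715 in FcgKO. Of 21 IFN signalling genes 2 were lower (9.52% called), the SOCS family member Cish (-0.57, adjusted p = 0.0174) and the transcription factor gene Batf2 (2876 and 2922 in WT against 2422 and 2286 in FcgKO, log2 difference -0.30, adjusted p = 0.0152). Irf1, the factor that relays much of the IFNγ response, read 16471 and 17567 in WT against 15547 and 16987 in FcgKO (-0.07, adjusted p = 0.892), and the inhibitor gene Socs1 465 and 436 in WT against 411 and 394 in FcgKO (adjusted p = 0.185). Log2 differences of the IFN signalling genes not called ran from -0.61 to 0.77. A p that misses the threshold does not show that the genotypes were alike.

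Antiviral genes, known best from the type I interferon response, held 2 called genes. Of 30 measured members 23 had a positive log2 difference, with a median of 0.12 against 0.0012 over all genes. The 2 called ones (6.67%, against 2.44% of all genes) were higher in FcgKO. Ifit2, whose product binds viral RNA, read 452 and 494 in WT and 705 and 915 in FcgKO (log2 difference 0.76, adjusted p = 0.0224), and Oas3, a synthetase of the RNA decay pathway, 115 and 115 in WT against 142 and 143 in FcgKO (0.31, adjusted p = 0.0076), for which a second probe gave -0.01. Rsad2, the viperin gene, read 1850.5 and 1628 in WT against 2761 and 2979 in FcgKO and Isg15 1693 and 1641 in WT against 2151 and 2481 in FcgKO. Neither was called (adjusted p = 0.528 and 0.153). Both FcgKO arrays were above both WT arrays for these 2 genes, as for 21.5% of all genes. Of 17 microbicidal effectors, the oxidase subunit gene Ncf4 was the member called (5.88%, against 2.44% of all genes). It read 2667 and 2572 in WT against 1995 and 1939 in FcgKO (log2 difference -0.41, adjusted p = 0.00514). Nos2, the inducible nitric oxide synthase gene, was dim, at 149 and 215 in WT and 126 and 106 in FcgKO (adjusted p = 0.102).

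**Figure D3:**
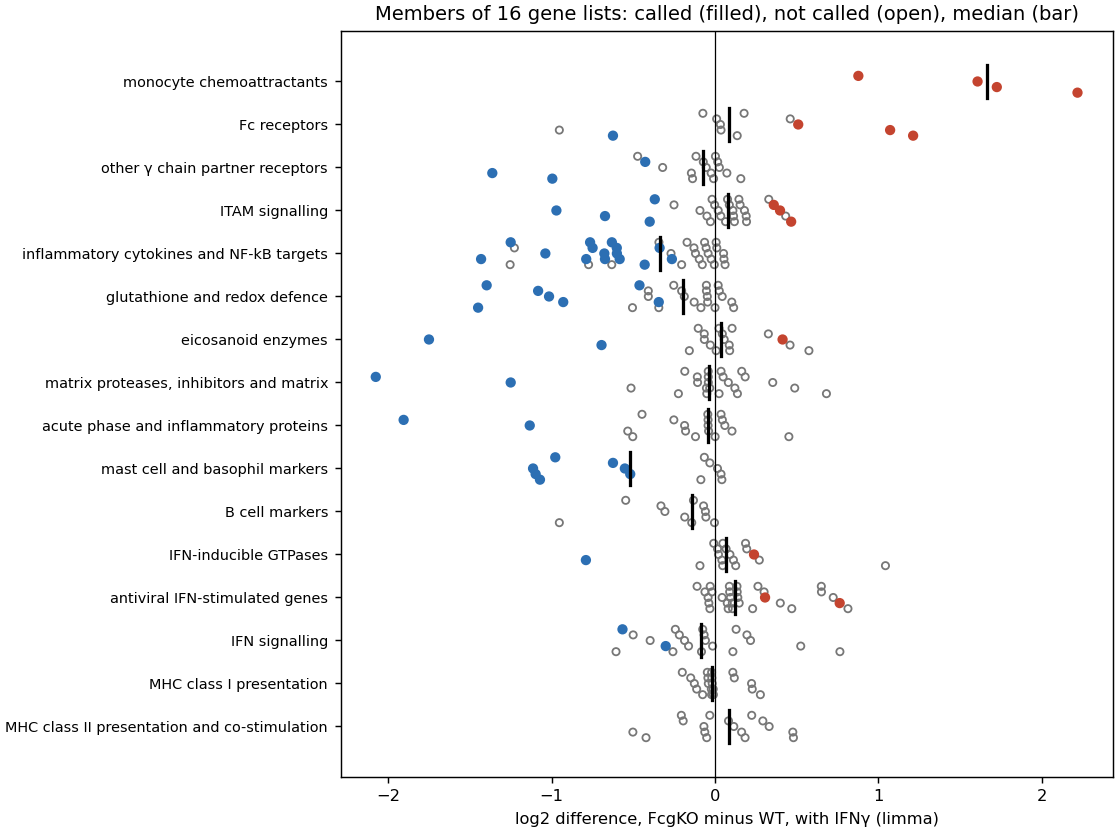
Log2 difference between FcgKO and WT with IFNγ for each measured member of 16 gene lists, with filled points for called genes (red higher, blue lower in FcgKO), open points for genes not called and a bar at the list median; Fcer1g is left out. The 4 monocyte chemoattractants lie on the right, the called members of the inflammatory, redox and mast cell lists on the left, and the MHC lists have no filled point.

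The 20 highest called genes away from Fcer1g also held the following. Rin2, an effector of the endosomal GTPase RAB5, read 504 and 508 in WT and 1085 and 1488 in FcgKO (log2 difference 1.33, adjusted p = 0.0022), with other probes at 0.62, called, and 0.20, not called. Rab7b, a GTPase of late endosomes, read 726 and 653 in WT against 1332 and 1464 in FcgKO (1.02, adjusted p = 0.000336), the lysosomal protease gene Lgmn 2534 and 2947 in WT against 4715 and 6472 in FcgKO (1.02, adjusted p = 0.0193), and the endosomal RNA sensor gene Tlr13 576 and 624 in WT against 1074 and 1195 in FcgKO (0.92, adjusted p = 0.00499). Daglb, which makes the endocannabinoid 2-arachidonoylglycerol, read 352 and 368 in WT against 668 and 690.3 in FcgKO, and its difference at rest was much the same (0.92 with and 0.86 without IFNγ). Another probe of Daglb, which is dim, gave 0.05 and was not called. The remaining genes among the 20 highest were Emp1 (1.13), the cholesterol ester hydrolase gene Nceh1 (1.08), Mtus1 (1.03), the lysophosphatidic acid receptor gene Lpar6 (1.02), the protease inhibitor gene Spint1 (0.99), Tmem86a (0.97), Lhfpl2 (0.88), Rassf2 (0.88) and the AP-1 repressor gene Jdp2 (0.84). Of the 5 other probes of Mtus1, 1 was called. Other probes of Rassf2 gave 0.18 and -0.02 and were not called.

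Further genes with large falls have varied roles. H2-M2, a non-classical MHC class I gene, read 524 and 628 in WT and 215 and 214 in FcgKO (log2 difference -1.42, adjusted p = 0.00445). The kinesin gene Kif3c read 591 and 631 in WT against 274 and 209 in FcgKO (-1.35, adjusted p = 0.00113), the MARCKS-related gene Marcksl1 1301 and 1557 in WT against 612 and 585 in FcgKO (-1.25, adjusted p = 0.000512), and the carbonyl reductase gene Cbr3 741 and 693 in WT against 349 and 297 in FcgKO (-1.15, adjusted p = 0.00057). The DNA damage response gene Gadd45a (-1.12, adjusted p = 0.0106) and Rasgrp1, an activator of RAS (-1.14, adjusted p = 0.0402), were lower with wider spread between the FcgKO replicates. Another probe of Gadd45a gave -0.66 and was called, while other probes of Rasgrp1 gave -0.15 and -0.14 and were not. Rasgrp1 also lost its call when only the arrays with IFNγ were fitted. Egr2, an immediate early transcription factor gene, read 1069 and 1034 in WT against 528 and 583 in FcgKO (-0.92, adjusted p = 0.000335). It was the called member among 26 immediate early genes (3.85%, against 2.44% of all genes). Dcstamp, needed for the fusion of macrophages, was lower (-0.78, adjusted p = 0.00057). So was the glucose transporter gene Slc2a1 (-0.57, adjusted p = 0.0119), alone among 15 glycolysis genes (6.67% called). Mertk, a receptor for dying cells, read 1612 and 1504 in WT against 943 and 991 in FcgKO (-0.69, adjusted p = 0.0301).

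Genes of resident macrophage identity and of the cell cycle were also listed, and 4.55% and 13% of them were called, against 2.44% of all genes. Of 22 genes of large peritoneal macrophages Cebpb was the member called (-0.42, adjusted p = 0.0147), and 12 had a positive and 10 a negative log2 difference. Gata6, their defining transcription factor gene, read 247 and 299 in WT and 306 and 357 in FcgKO with IFNγ (log2 difference 0.28, adjusted p = 0.35). Timd4 read 793 and 929 in WT against 434 and 559 in FcgKO (-0.80, limma adjusted p = 0.107). Selp gave -0.25 and Icam2 0.20, and neither was called. Of 23 cell cycle genes 3 were higher, Ccnd1, the cyclin D1 gene (6011 and 6723 in WT against 11117 and 9695 in FcgKO, log2 difference 0.71, adjusted p = 0.0347), and the replication helicase genes Mcm6 (0.56) and Mcm4 (0.29). The 2 further probes of Ccnd1 were also called. None of the 3 other Mcm6 probes or the 2 other Mcm4 probes was called, and 1 of each had a negative sign. No gene of the complement list was called among 16 (0%, against 2.44% of all genes). In that list C1qc read 5595 and 7208 in WT and 9937 and 13589 in FcgKO (adjusted p = 0.0587).

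Genes near Fcer1g were kept apart. A knockout made by gene targeting can carry flanking sequence of the line in which it was made, and the labels do not give that line. For genes close to Fcer1g on chromosome 1, the loss of the chain and such inherited sequence cannot be told apart. Near was defined as up to 150 annotated genes away in either direction, in the order of the reference gene table. Of the 113 measured besides Fcer1g, 15 were called (13.3%), 5 higher and 10 lower in FcgKO, whereas 389 of 16468 genes elsewhere were called (2.36%). The share was 22.2% (8 of 36) within 50 genes, 9.09% (7 of 77) from 51 to 150 genes away, 3.57% (3 of 84) beyond 150 and up to 300 and 1.99% (14 of 703) on the rest of the chromosome. The number called near Fcer1g was 9 without WT replicate 1 or FcgKO replicate 2 of the IFNγ arrays.

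The neighbours with the largest differences lay on both sides. Ifi202b, a member of the IFI200 family that binds DNA, was under the array median on both WT arrays, at 94.6 and 95.2, and read 1076 and 1288 in FcgKO, at least 11.4-fold higher (adjusted p = 6.85e-05). Of its other 2 probes, 1 gave 2.49 and was called, and 1 gave -0.05 and was not. Ifi205 of the same family went the other way, from 314 and 415 in WT to 94 and 90.4 in FcgKO, at least 3.5-fold lower (adjusted p = 0.000221). Aim2, a cytosolic DNA sensor gene of that family, read 166 and 182 in WT against 319.8 and 308 in FcgKO (log2 difference 0.85, adjusted p = 0.000539). Uap1, whose enzyme supplies the sugar donor for N-linked glycans and lies on the other side of Fcer1g, read 649 and 701 in WT against 126 and 166 in FcgKO (-2.22, adjusted p = 0.000237), and Vsig8 352 and 241 in WT against 108 and 113 in FcgKO (-1.40, adjusted p = 0.00509).

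A run of lower genes lay among the SLAM family receptors, which immune cells use to recognise each other. Of 10 measured members 9 lie near Fcer1g, and 3 were lower and none higher. The share called was 30%, against 13.3% of the genes near Fcer1g and 2.44% of all genes. Slamf7 read 335 and 358 in WT and 169.8 and 196 in FcgKO (log2 difference -0.92, adjusted p = 0.000999), Ly9 446 and 568 in WT against 319.5 and 355 in FcgKO (-0.58, adjusted p = 0.0495), and Cd48 161 and 154 in WT against 91.9 and 92.7 in FcgKO, at least 1.53-fold lower (adjusted p = 0.00509). Fcer1a, the IgE-binding chain gene of mast cells and basophils, read 253 and 213 in WT against 142 and 159.6 in FcgKO (-0.62, adjusted p = 0.0126). It belongs both to the neighbours and to the mast cell markers that moved with the genotype. Smaller differences were called for Copa (-0.42), Pex19 (-0.43), Dusp23 (-0.55) and Sdhc (0.41), and another probe of Sdhc and of Ly9 was not called.

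**Figure D4:**
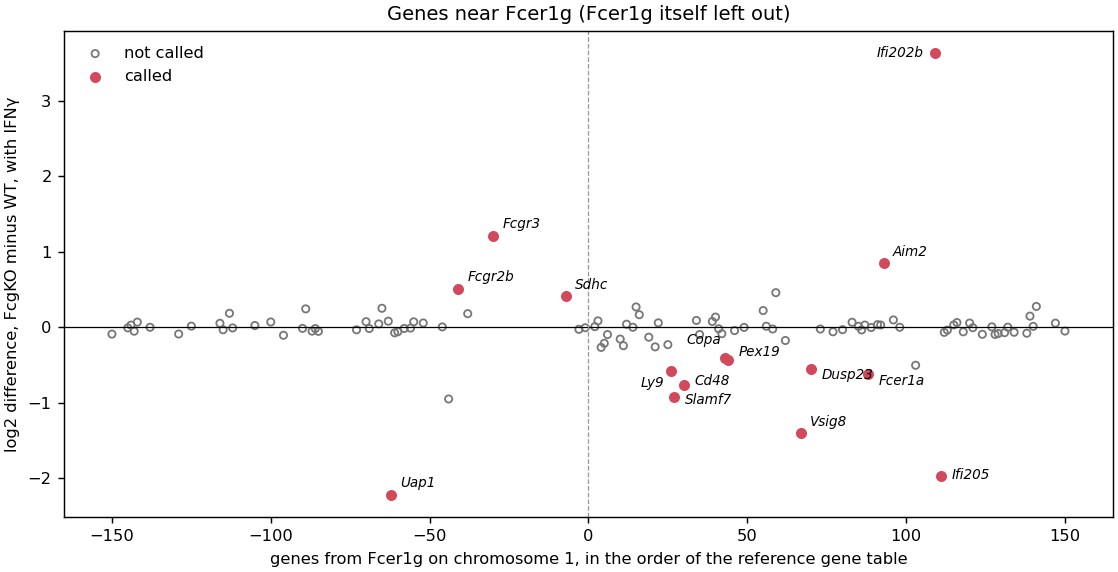
Log2 difference between FcgKO and WT with IFNγ for the 113 measured genes within 150 genes of Fcer1g, by their order on chromosome 1 in the reference gene table (negative numbers before Fcer1g); filled points are called genes. Ifi202b stands at 3.63 and Uap1 at -2.22, on opposite sides of the gene, and most open points lie close to 0.

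The same genotype difference without IFNγ was set beside these values. At rest limma called 90 genes (0.542% of those tested), of which 29 were higher and 61 lower in FcgKO. Of the 167 genes called higher with IFNγ, 151 had the same sign at rest and 22 were called there, with median log2 differences of 0.47 with and 0.20 without IFNγ. Of the 237 called lower besides Fcer1g, 217 had the same sign and 49 were called, with medians of -0.52 and -0.25. These medians favour the IFNγ condition because the genes were chosen by their call in it. The count at rest was 43 without WT replicate 1 or 2 of the IFNγ arrays, 47 without WT replicate 1, 19 without FcgKO replicate 1 and 20 without FcgKO replicate 2 of the unstimulated arrays, and 137 without either FcgKO replicate of the IFNγ arrays.

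The difference between the conditions was called for 2 genes (0.0121%). Lrrc75a, a leucine-rich repeat gene, read 818 and 926 in WT and 327 and 300.4 in FcgKO with IFNγ, and 219 and 258 in WT against 239 and 228 in FcgKO without it. The genotype difference was thus -1.47 with and -0.03 without IFNγ, and the difference between them -1.45 (SE 0.13, adjusted p = 0.0409). Another probe of the gene, at -1.28, was called too, and its remaining 2 probes gave 0.02 and -0.01 for the genotype difference with IFNγ. Mocs1, which acts in the synthesis of the molybdenum cofactor, read 1366 and 1348 in WT against 746 and 735 in FcgKO with and 788 and 769.8 in WT against 656 and 644 in FcgKO without IFNγ, a difference of -0.61 (SE 0.06, adjusted p = 0.0409). Just outside the threshold were Fcgr1 and Ifi205 (adjusted p = 0.0517 and 0.0517) and Gbp5, Ifi202b and Tarm1 (adjusted p = 0.052, 0.052 and 0.052). The number of genes called was 0 without either unstimulated WT replicate, without FcgKO replicate 1 of the unstimulated arrays or without FcgKO replicate 2 of the IFNγ arrays, 1 without either WT replicate of the IFNγ arrays and 27 without FcgKO replicate 1 of the IFNγ arrays. Limma gave an unadjusted p below 0.05 for 1252 genes.

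**Figure D5:**
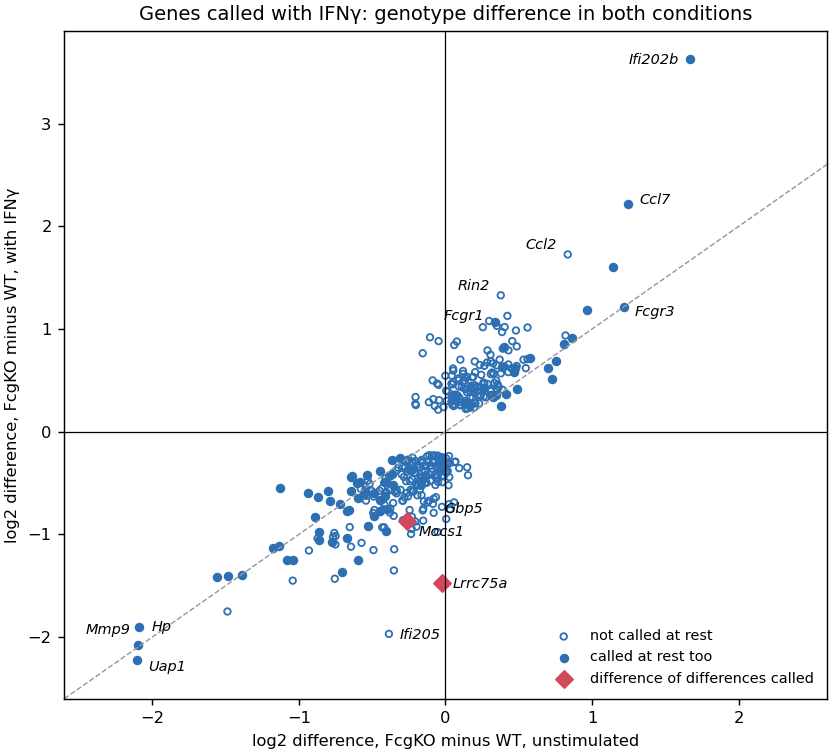
Log2 difference between FcgKO and WT with IFNγ (vertical) against that without IFNγ (horizontal) for the 404 genes called with IFNγ besides Fcer1g; filled points were called at rest too, the dashed line marks equal differences and red diamonds are the 2 genes whose differences were called as unequal. Mmp9, Hp and Uap1 lie near the dashed line, and Lrrc75a lies at -0.03 at rest and -1.47 with IFNγ.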

How the data were processed

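RNA was labelled with biotin and hybridised to 8 Illumina MouseRef-8 arrays, and GenomeStudio was used, per the submitters' processing notes, which give no version. The deposited intensity values lie on a linear scale from 82.1 to 22479. Sorted columns differed by at most 0.0058 (log2), which shows that the authors had normalised the intensity values across arrays before deposit, by a step not given in the sources used here. A second deposited table has 16 value columns that could not be assigned to samples and is not used here, so no detection p was available. Symbols came from the platform annotation, and the order of genes from an annotation of GRCm38.p6.

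The log2 intensities were modelled in R 4.3.3 (version 1.17.8 of data.table) with limma 3.58.1, using lmFit, eBayes and a mean for each of the 4 groups. The Benjamini-Hochberg adjustment covered 23978 probes, and a gene was called below 0.05 on its brightest probe. No background correction was applied, unlike in the alternatives with normexp. "At least" folds are given where a group was at or under its arrays' medians. The fit was tested on simulated data.

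Named genes are the 20 highest and 20 lowest called genes away from Fcer1g, up to 20 called near it, up to 5 called and 3 defining members of each of 38 lists, and genes called for the difference between conditions. Members and lists were chosen with earlier results of these data known. Defining uncalled members and other list members named were chosen after their values were seen, as were the antioxidant response motif and the promoters of Fcgr1 and Srxn1.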

Additional observations from a re-analysis of the deposited data

Results flagged for a closer look

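For 2 genes the genotype difference itself differed between the conditions by the limma test of that difference. The value for Lrrc75a was -1.45 on the log2 scale (SE 0.13, adjusted p = 0.0409), from -1.47 with IFNγ and -0.03 without it, and FcgKO was below WT on both arrays with IFNγ. For Mocs1 it was -0.61 (SE 0.06, adjusted p = 0.0409), from -0.87 with IFNγ and -0.26 without it. Both calls come from a fit in which 2 of 16593 genes passed (0.0121%), and the count lay between 0 and 27 when an array was left out.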

How the results depend on the processing

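The number of genes called with IFNγ (405) lay between 117 and 471 when each array was left out in turn, with 44 to 201 higher and 70 to 270 lower, 9 to 16 near Fcer1g and 106 to 454 elsewhere. The count at rest lay between 19 and 137 and that of unequal differences between 0 and 27. By list, members called numbered 3 to 4 for monocyte chemoattractants, 2 to 19 for inflammatory genes, 1 to 8 for redox genes, 2 to 7 for mast cell markers, 3 to 6 for Fc receptors and 3 to 8 for ITAM signalling. Of the 94 named genes called, 59 were not counted as lost under any planned setting that kept all arrays. That count includes Ifi202b and Mcm6, whose signs turned with the least variable probe, on which neither was called.
With normexp at an offset of 16, 110 genes were called higher and 2 ITAM signalling genes were called. The count at rest was 140 with normexp at an offset of 50, 149 with an intensity trend and 161 with a replicate block. That of unequal differences was 9, 17 and 9 in the same order, 0 when adjusted over 1 probe per gene and 1 with each gene's least variable probe. With 50 genes on each side as near, 8 were called. With the least variable probe the signs turned for Ifi202b (-0.0495), Mcm6 (-0.0629) and Mcm4 (-0.00923), which are other probes. The cause of the other changes was not tested.
The labels do not say that a replicate number marks a shared animal or day, and the deviations of same-numbered replicates correlated between -0.0494 and 0.25 over 23978 probes (0.105 for the groups with IFNγ), so the numbers were not taken to pair the samples. With them as a replicate block, 549 genes were called with IFNγ, 243 higher and 306 lower, and 4 of the B cell markers, none of which was called without it. The planned filter on detection p could not be run. The number of arrays limits the precision, and 6463 genes lay under the median of all 4 IFNγ arrays.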
